A study of Homo sapiens with 6 samples.

Results

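The mitochondrial ribosomal proteins are encoded by nuclear genes whose symbols start with MRPL (large subunit series) or MRPS (small subunit series). All probe sets were taken whose only gene symbol in the platform annotation starts with MRPL or MRPS and a digit, leaving out pseudogene and antisense symbols. This gave 140 of the 54675 probe sets on the array, for 75 genes, of which 48 were MRPL and 27 were MRPS. RNA came from IMR32, an established human neuroblastoma cell line with amplified MYCN, and was read on 6 Affymetrix arrays. The 3 teriflunomide arrays held cells given 118 µM of the drug for 24 h, and the 3 DMSO arrays held cells given 0.1% DMSO for the same time. Both treatments began 12 h after seeding. Whether the drug wells also held DMSO was not stated. The sample titles call the arrays of each group biological replicates but do not say whether these came from separate cultures. The spread behind each p-value is therefore that of these 3 arrays per group, and how much of it may be technical is not known. Teriflunomide inhibits dihydroorotate dehydrogenase (DHODH), an enzyme of the inner mitochondrial membrane that makes pyrimidines and passes electrons to ubiquinone.

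Mitochondrial ribosomes translate the few proteins that mitochondrial DNA encodes, all of them subunits of the oxidative phosphorylation complexes. Their RNA is made inside the organelle, while every protein of the ribosome is made in the cytosol and imported. Some of these proteins descend from those of the bacterial ancestor, and others were added during the evolution of mitochondria. In IMR32 cells the comparison asks how the transcripts of these proteins stood after a day with the drug.

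All 75 genes passed the filter on low values (a value no lower than the array median, on 3 or more of the 6). No member was therefore lost. The array medians were log2 2.63 to 2.66, so passing the filter does not by itself show expression. Each gene stands on its probe set with the highest mean. Of these probe sets, 43 carry the suffix _s_at and 3 the suffix _x_at, which mark probes that can also pick up related transcripts. The group means of the members lay between log2 7.13 and 14.22, far above the arrays' lowest value of 2.18, and the largest SD within a group was 0.26. The cells carried neuroblastoma markers: 10 of 11 on the array passed the filter, with a median of log2 10.47 with teriflunomide and 10.6 in DMSO and a summed signal of log2 15.84 to 15.91 on the teriflunomide arrays and 16.07 to 16.13 on the DMSO arrays. TH, an enzyme of catecholamine synthesis, was the exception, at log2 2.18 to 2.21 with teriflunomide and 2.18 in DMSO. DBH, another enzyme of that pathway, was also dim, at log2 2.61, 2.36 and 2.44 with teriflunomide, against 2.77, 4.26 and 3.19 in DMSO. It passed the filter through its DMSO arrays only. Within the list CHGA (-1.46) and HAND1 (-1.06) fell and PHOX2A (0.76) rose, CHGA being a granule protein and the other 2 transcription factors. Of 20 markers of blood, endothelial and epithelial cells, 11 lay at the lowest value on all arrays, PTPRC, CDH5 and CDH1 among them. By the filter used for the neuroblastoma markers, 4 of the 20 passed: MUC1, KRT8, KRT18 and EPCAM, all epithelial. MUC1 fell, with a mean of log2 6.14 with teriflunomide and 6.78 in DMSO, and the other 3 were not called. The summed signal of the 20 was log2 7.72 to 7.87 on the teriflunomide arrays and 7.92 to 8.09 on the DMSO arrays. The part of these markers in the results was not tested.

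The promoters of 4 members that the results below name are shown as a description. MRPS12 and MRPL20 had the largest falls, MRPS16 had the largest rise, and MRPL57 rose while the gene that starts next to it on the other strand fell. Each is 300 bases from RefSeq, build GRCh38.p14, running from 250 bases before the gene's start to 50 after it, and 67 of the 75 members had such an entry. Capitals mark 3 motifs searched on both strands: CCGGAAG (ETS), AAGATGGC (YY1) and GCGCA, any base, GCGC (NRF1).
MRPS12, chr19:38930694-38930993, plus strand: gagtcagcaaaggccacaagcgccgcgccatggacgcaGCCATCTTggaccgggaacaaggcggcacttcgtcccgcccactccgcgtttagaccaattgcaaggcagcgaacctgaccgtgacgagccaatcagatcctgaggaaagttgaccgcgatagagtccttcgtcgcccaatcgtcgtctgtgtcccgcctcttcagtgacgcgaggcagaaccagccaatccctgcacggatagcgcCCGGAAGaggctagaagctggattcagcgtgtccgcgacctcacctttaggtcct
MRPL20, chr1:1407244-1407543, minus strand: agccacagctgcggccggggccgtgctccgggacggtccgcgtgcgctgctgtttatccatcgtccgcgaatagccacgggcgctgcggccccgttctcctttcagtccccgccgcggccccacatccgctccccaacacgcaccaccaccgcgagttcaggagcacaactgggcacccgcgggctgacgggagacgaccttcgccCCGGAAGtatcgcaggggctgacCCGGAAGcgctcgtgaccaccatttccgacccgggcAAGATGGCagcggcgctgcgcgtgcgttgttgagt
MRPS16, chr10:73252595-73252894, minus strand: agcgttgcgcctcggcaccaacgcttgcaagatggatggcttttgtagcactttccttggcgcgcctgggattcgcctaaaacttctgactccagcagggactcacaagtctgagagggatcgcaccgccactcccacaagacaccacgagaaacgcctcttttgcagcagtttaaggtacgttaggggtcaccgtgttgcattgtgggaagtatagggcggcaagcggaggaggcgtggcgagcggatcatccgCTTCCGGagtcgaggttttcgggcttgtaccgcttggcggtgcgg
MRPL57, chr13:21176408-21176707, plus strand: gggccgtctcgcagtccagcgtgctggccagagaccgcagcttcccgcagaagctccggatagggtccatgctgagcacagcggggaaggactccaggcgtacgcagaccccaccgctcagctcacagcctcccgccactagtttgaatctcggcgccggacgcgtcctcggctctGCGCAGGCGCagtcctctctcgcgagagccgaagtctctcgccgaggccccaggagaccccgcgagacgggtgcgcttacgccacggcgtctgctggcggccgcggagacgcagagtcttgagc

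With teriflunomide, 36 of the 75 genes fell, 11 rose and 28 did not pass (limma, adjusted p under 0.05 over 11998 genes). Among the members 48.0% were lower and 14.7% higher, against 28.9% lower and 29.7% higher of all genes tested, where 58.6% passed in either direction. At an adjusted p under 0.01, 30 members were lower and 7 higher, against 21.7% lower and 21.9% higher of all genes. The median log2 fold change of the members was -0.167, and that of all genes 0.001. Taken array by array, as the median over members of the difference from each gene's DMSO mean, the teriflunomide arrays stood at -0.183, -0.155 and -0.151 and the DMSO arrays at -0.023, -0.01 and 0.026, with no overlap. The groups' arrays did not overlap for 59 members (78.7%), and for 67.0% of all genes. The main filter also kept genes dimmer than every member, and these enter the shares of all genes. With the filter at each array's 75th percentile (log2 7.87 to 7.92), 38 of 74 members were lower and 10 higher. All genes kept by that filter gave 35.4% lower and 36.1% higher.

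The changes were small. Only MRPS12 changed at least 2-fold among the 75 genes, or 1.33%, where 9.77% of all genes passed the test and did so. At least 1.5-fold, 8 members (10.7%) passed, where the share of all genes was 24.0%. The median size of change, without regard to direction, was 0.253 log2 units for the members and 0.289 for all genes.

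**Figure D1:**
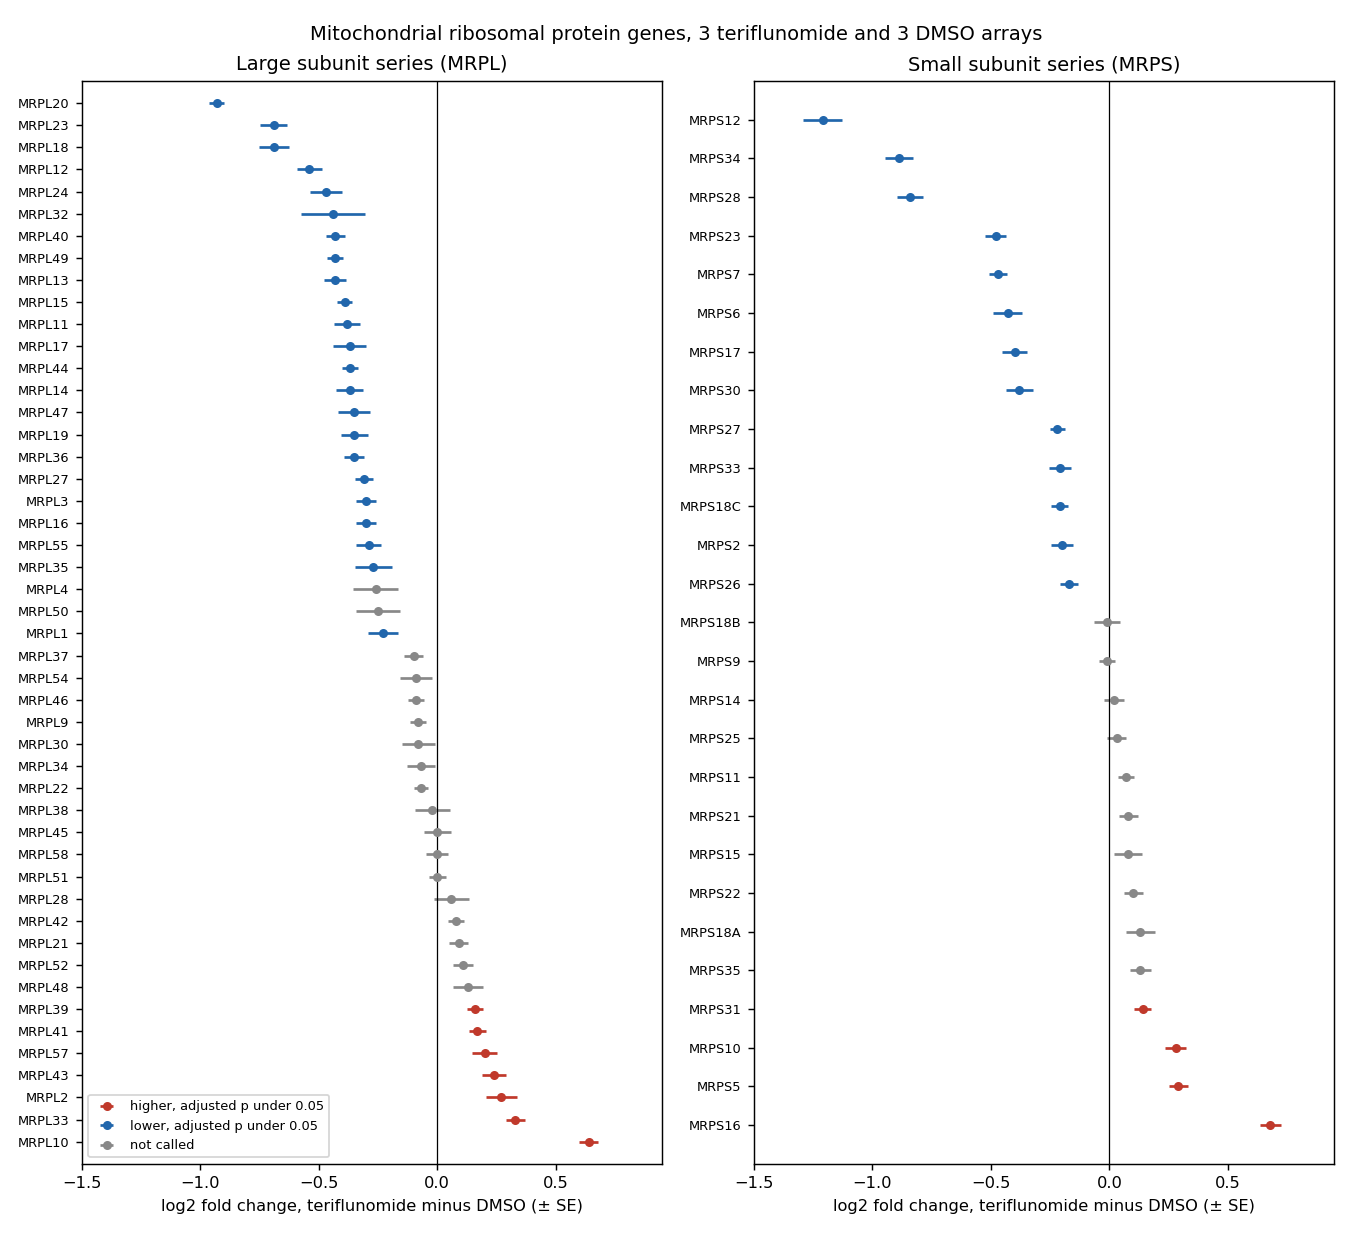
Log2 fold change, teriflunomide minus DMSO (horizontal axis, bars are limma's SE), of the 48 MRPL genes (left) and 27 MRPS genes (right), 3 arrays per group. Blue genes were called lower (36), red genes higher (11) and grey genes not called (28). MRPS12 at -1.21 and MRPS16 at 0.68 mark the ends of the range.

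The 48 MRPL genes had a median log2 fold change of -0.243, and 23 of them fell, 7 rose and 18 missed the threshold. The 27 MRPS genes had a median of -0.014, and 13 fell, 4 rose and 10 missed it. The shares lower were 47.9% and 48.1%, and the difference between the series was not tested. In the MRPS series the middle gene by fold change was one that did not pass, at -0.01, as the plot of all members shows. In structures of the mammalian ribosome MRPS30 and MRPS18A sit in the large subunit in spite of their names. Counted by structure, 24 of 50 large subunit genes and 12 of 25 small subunit genes fell.

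Proteins with a bacterial counterpart and those specific to mitochondria gave different counts, by a division drawn from general knowledge of the family. Of 44 genes with a bacterial counterpart 26 fell (59.1%) and 6 rose, with a median log2 fold change of -0.279. Of 29 genes counted here as specific to mitochondria 10 fell (34.5%) and 5 rose, with a median of -0.02. MRPS28, which fell, was counted among these 29. The classes were not checked against protein sequences, and moving a gene such as MRPS28 would change both counts. Of all genes tested 28.9% were lower and 29.7% higher. The other 2 members, MRPS18A and MRPS18B, are extra copies of a bacterial family, and neither passed. The difference between these counts was not tested.

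MRPS12, the counterpart of the bacterial S12 protein at the decoding site where codon meets anticodon, fell most. Its log2 intensity was 10.67, 10.55 and 10.58 on the teriflunomide arrays, against 11.82, 11.66 and 11.95 on the DMSO arrays. Every teriflunomide array lay below every DMSO array by about a log2 unit or more. By limma it changed by -1.21 log2 units (SE 0.083, adjusted p = 0.000175), a 2.31-fold fall. Of its 3 further probe sets, 2 changed more, by -2.08 and -1.76, and the last was dim (log2 3.34 on every array) and did not pass.

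MRPL20, a large subunit protein that binds ribosomal RNA, had the second largest fall. It stood at log2 12.10, 12.08 and 12.06 with teriflunomide, against 13.05, 12.98 and 13.00 in DMSO. The 2 groups were tight, with SDs of 0.02 with teriflunomide and 0.03 in DMSO, and the log2 fold change was -0.93 (SE 0.032, adjusted p = 3.13e-05). MRPS34, a small subunit protein specific to mitochondria, read log2 9.96, 10.11 and 10.17 with teriflunomide, against 10.99, 10.96 and 10.98 in DMSO. The groups were well apart, and it changed by -0.89 (SE 0.059, adjusted p = 0.000157). MRPS28, another small subunit protein, read log2 11.34, 11.19 and 11.36 with teriflunomide, against 12.16, 12.09 and 12.14 in DMSO. It changed by -0.84 (SE 0.055, adjusted p = 0.000157), again with no overlap.

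The next falls were MRPL18 and MRPL23. MRPL18, which belongs to the central protuberance at the top of the large subunit, read log2 11.77, 11.88 and 11.97 with teriflunomide, against 12.60, 12.49 and 12.60 in DMSO. MRPL23, at the exit where the new chain leaves the ribosome, read log2 11.25, 11.40 and 11.42 with teriflunomide, against 12, 12.09 and 12.05 in DMSO. Both changed by -0.69, with an SE of 0.063 for MRPL18 and 0.057 for MRPL23, and in both the groups stood apart. MRPL12, the stalk protein that recruits translation factors and has been reported to bind the mitochondrial RNA polymerase, read log2 12.62, 12.57 and 12.55 with teriflunomide, against 13.10, 13.04 and 13.21 in DMSO. It fell by 0.54 log2 units (SE 0.052, adjusted p = 0.000512), while a dim probe set with a mean of log2 3.47 with teriflunomide and 3.57 in DMSO did not pass at -0.10. MRPS23, the last of the 8, read log2 12.76, 12.83 and 12.89 with teriflunomide, against 13.30, 13.27 and 13.35 in DMSO, a change of -0.48 (SE 0.045).

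The other 28 fallers changed by -0.47 to -0.17. MRPL24 and MRPS7 (both -0.47) headed them, followed by MRPL32 (-0.44), MRPL13, MRPL40, MRPL49 and MRPS6 (all -0.43), MRPS17 (-0.40) and MRPL15 (-0.39). MRPL11 and MRPS30 stood at -0.38, MRPL14, MRPL17 and MRPL44 at -0.37, MRPL19, MRPL36 and MRPL47 at -0.35, MRPL27 at -0.31 and MRPL3 and MRPL16 at -0.30. MRPL55 (-0.29), MRPL35 (-0.27), MRPL1 (-0.23), MRPS27 (-0.22), MRPS18C and MRPS33 (both -0.21), MRPS2 (-0.20) and MRPS26 (-0.17) closed the group. MRPL32, chosen after its values were seen, had the largest SD of all members, with log2 12.77, 12.90 and 12.40 on the teriflunomide arrays, against 13.08, 13.16 and 13.16 in DMSO. Its call (adjusted p = 0.0349) was lost without teriflunomide array 1 or any DMSO array, and that of MRPL1 likewise. MRPL19 lost its call with probe sets averaged (-0.10, limma adjusted p = 0.317). The call of MRPL35 was lost without teriflunomide array 1 or 2 or DMSO array 1 or 3.

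**Figure D2:**
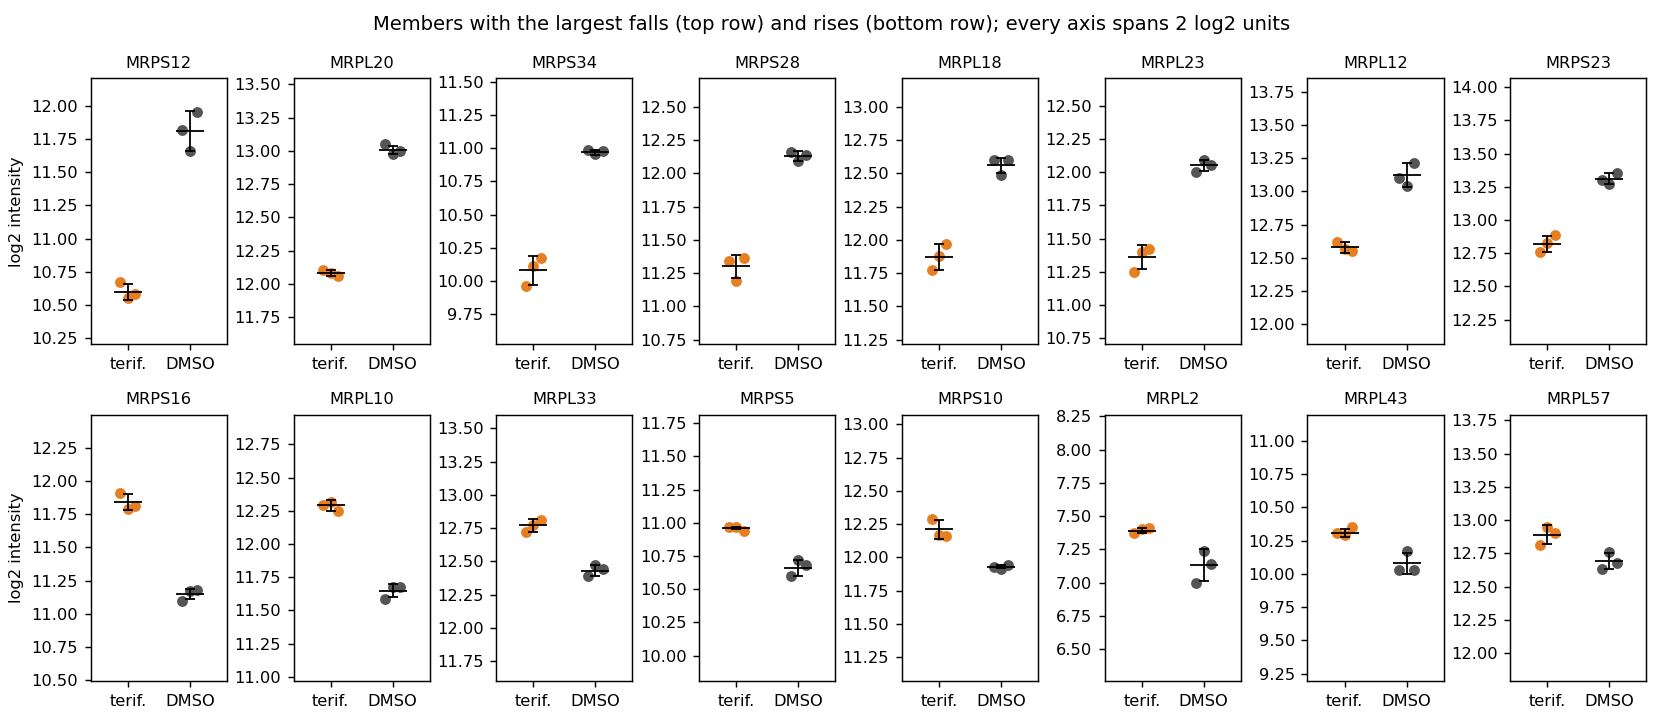
Log2 intensity on each array (points), with group mean and SD (bars), for the 8 members that fell most (top) and the 8 that rose most (bottom). Teriflunomide stands left of DMSO, n = 3 arrays each, and each axis spans 2 log2 units. The groups do not overlap in any of the 16 panels.

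MRPS16, the counterpart of bacterial S16 in the body of the small subunit, rose most. It read log2 11.91, 11.79 and 11.81 with teriflunomide, against 11.10, 11.17 and 11.18 in DMSO. The log2 fold change was 0.68 (SE 0.046, adjusted p = 0.000162), a 1.61-fold rise. Its other probe set, log2 9.48, 9.72 and 9.91 with teriflunomide and 10.09, 10.09 and 9.95 in DMSO, lay lower on every teriflunomide array. That probe set changed by -0.34 and did not pass (limma adjusted p = 0.0593), so the call of MRPS16 rests on its brighter probe set.

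MRPL10, which carries MRPL12 on the stalk, rose by nearly the same amount. It read log2 12.29, 12.32 and 12.25 with teriflunomide, against 11.59, 11.68 and 11.68 in DMSO, a log2 fold change of 0.64 (SE 0.040, adjusted p = 0.000126). The stalk thus held changes in both directions, since MRPL11, at the base of the stalk, fell by 0.38 log2 units and MRPL12 fell by 0.54. MRPL33 read log2 12.72, 12.77 and 12.81 with teriflunomide, against 12.39, 12.47 and 12.44 in DMSO, a change of 0.33 (SE 0.040). MRPS5 read log2 10.97, 10.97 and 10.94 with teriflunomide, against 10.60, 10.72 and 10.68 in DMSO, a change of 0.29 (SE 0.040). The MRPS5 call was lost with probe sets averaged (0.24, limma adjusted p = 0.0584) and with the plain suffix preferred (0.37, adjusted p = 0.165), and its 3 other probe sets did not pass. Both are counterparts of bacterial proteins, and in both the groups stood apart.

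The remaining rises were smaller. MRPS10, of the head of the small subunit, read log2 12.29, 12.17 and 12.16 with teriflunomide, against 11.93, 11.91 and 11.94 in DMSO, a change of 0.28 (SE 0.045). MRPL2, a core protein near the peptidyl transferase centre, read log2 7.37, 7.40 and 7.41 with teriflunomide, against 7, 7.24 and 7.14 in DMSO. It changed by 0.27 (SE 0.065), and its other probe set by 0.43. MRPL43 read log2 10.31, 10.29 and 10.35 with teriflunomide, against 10.03, 10.17 and 10.03 in DMSO, a change of 0.24 (SE 0.050). MRPL57 read log2 12.81, 12.95 and 12.90 with teriflunomide, against 12.63, 12.76 and 12.68 in DMSO, a change of 0.20 (SE 0.053). MRPL41 (0.17), MRPL39 (0.16) and MRPS31 (0.14) completed the 11. The call of MRPL2 was lost without teriflunomide array 2 or 3 (highest adjusted p = 0.0519). The calls of MRPL57 and MRPS31 were each lost without teriflunomide array 2 or 3 or DMSO array 1 or 3, and MRPL57 averaged over its probe sets stood at 0.04. MRPL41 lost its call with probe sets averaged (0.06, limma adjusted p = 0.169), and MRPL39 with the plain suffix preferred (0.41, adjusted p = 0.125).

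The 28 genes that did not pass had log2 fold changes from -0.26 to 0.13. MRPL45, which ties the ribosome to the inner membrane, read log2 9.92, 10.03 and 10.03 with teriflunomide, against 9.96, 10.08 and 9.93 in DMSO, a difference of 0.00 (SE 0.057). MRPL58, a peptidyl-tRNA hydrolase built into the large subunit, also stood at 0.00, as did MRPL51. MRPL4 (-0.26), MRPL50 (-0.25), MRPL37 (-0.10), MRPL46 and MRPL54 (both -0.09), MRPL9 and MRPL30 (both -0.08), MRPL22 and MRPL34 (both -0.07), MRPL38 (-0.02) and MRPS9 (-0.01) lay below 0. MRPS14 (0.02), MRPS25 (0.03), MRPL28 (0.06), MRPS11 (0.07), MRPL42, MRPS15 and MRPS21 (all 0.08), MRPL21 (0.09), MRPS22 (0.10), MRPL52 (0.11), MRPL48 and MRPS35 (both 0.13) lay above it. MRPL30, chosen after its values were seen, had 3 of 5 probe sets called lower (-0.50, -0.36 and -0.35) and passed with probe sets averaged (-0.23, limma adjusted p = 0.00959). In all, 12 of the 28 passed under at least 1 alternative. Their SEs ran from 0.029 to 0.095, and a value that missed the threshold does not show that a transcript stayed the same.

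The 3 copies related to bacterial S18 did not share a call. MRPS18C, which holds the place of bacterial S18, read log2 11.51, 11.50 and 11.51 with teriflunomide, against 11.78, 11.69 and 11.70 in DMSO, a fall of 0.21 log2 units (SE 0.035, limma adjusted p = 0.0038). That call was lost with probe sets averaged (-0.07, adjusted p = 0.539), where a dim probe set at 0.08 enters. MRPS18A, of the large subunit, read log2 10.12, 10.02 and 10.17 with teriflunomide, against 9.91, 9.95 and 10.06 in DMSO, where the groups overlapped (0.13, SE 0.061). MRPS18B read log2 12.20, 12.20 and 12.28 with teriflunomide, against 12.17, 12.34 and 12.22 in DMSO (-0.01, SE 0.054). The differences between the 3 genes were not tested.

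By place in the ribosome, in those parts that could be assigned, 4 of 8 central protuberance genes fell and the other 4 did not pass. At the polypeptide exit 4 of 7 fell and 1, MRPL39, rose. In the body of the small subunit MRPS12 and MRPS17 fell and MRPS16 and MRPS5 rose. In its head MRPS7 and MRPS33 fell and MRPS10 and MRPS31 rose, out of 7. On its platform MRPS6 and MRPS18C fell out of 5. Over all members 48.0% were lower and 14.7% higher, and over all genes tested 28.9% and 29.7%. Each site holds few genes, and whether any site differs from these shares was not tested. MRPS7, chosen after its values were seen and whose bacterial counterpart binds ribosomal RNA early in assembly of the head, read log2 11.82, 11.86 and 11.83 with teriflunomide, against 12.32, 12.25 and 12.36 in DMSO.

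Several genes have more than 1 probe set, and these often differed. Of the 140 probe sets 131 passed the filter, and 53 were lower, 17 higher and 61 not called when all 22741 probe sets of 1 symbol were tested singly. Of all probe sets tested, 26.9% were lower, 25.5% higher and 52.3% called in either direction. The median log2 fold change of the 131 member probe sets was -0.08, where the 75 genes gave -0.167. At an adjusted p under 0.01, 39 member probe sets were lower and 8 higher, against 19.5% and 18.1% of all. At least 2-fold, 5 member probe sets passed, against 10.3% of all, and at least 1.5-fold the share of all was 24.3%. The 9 that were not tested had means of at most log2 2.66. Of 32 genes with 2 or more tested probe sets, 4 had all of them called the same way, 7 had none called, 18 had some called in 1 direction and the rest not called, and 3 had calls in opposite directions.

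The 3 genes with opposite calls were MRPS30, MRPL43 and MRPL42. For MRPS30 the brightest probe set read log2 10.11, 10.01 and 10.19 with teriflunomide, against 10.52, 10.42 and 10.51 in DMSO. A second read log2 9.94, 10.07 and 10.14 with teriflunomide, against 9.66, 9.67 and 9.58 in DMSO, and the other rose by 0.29. All 3 were bright and passed the test, so the direction of MRPS30 is not settled. For MRPL43 a dimmer probe set read log2 6.55, 6.51 and 6.35 with teriflunomide, against 7.81, 7.84 and 7.76 in DMSO, a fall of 1.33 log2 units beside the rise of 0.24. For MRPL42 a probe set at log2 10, 10.21 and 10.21 with teriflunomide, against 10.52, 10.70 and 10.43 in DMSO, fell by 0.41, while another rose by 0.26.

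MRPL4, which contacts RNA near the exit tunnel, and MRPS11 were chosen after their values were seen. MRPL4 did not pass on its brightest probe set (-0.26, adjusted p = 0.0637). A second MRPL4 probe set read log2 7.15, 7.24 and 7.08 with teriflunomide, against 8.70, 8.38 and 8.64 in DMSO, a fall of 1.41, and the other fell by 0.65. MRPS11 did not pass at 0.07 on its brightest probe set and fell by 0.50 on another.

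**Figure D3:**
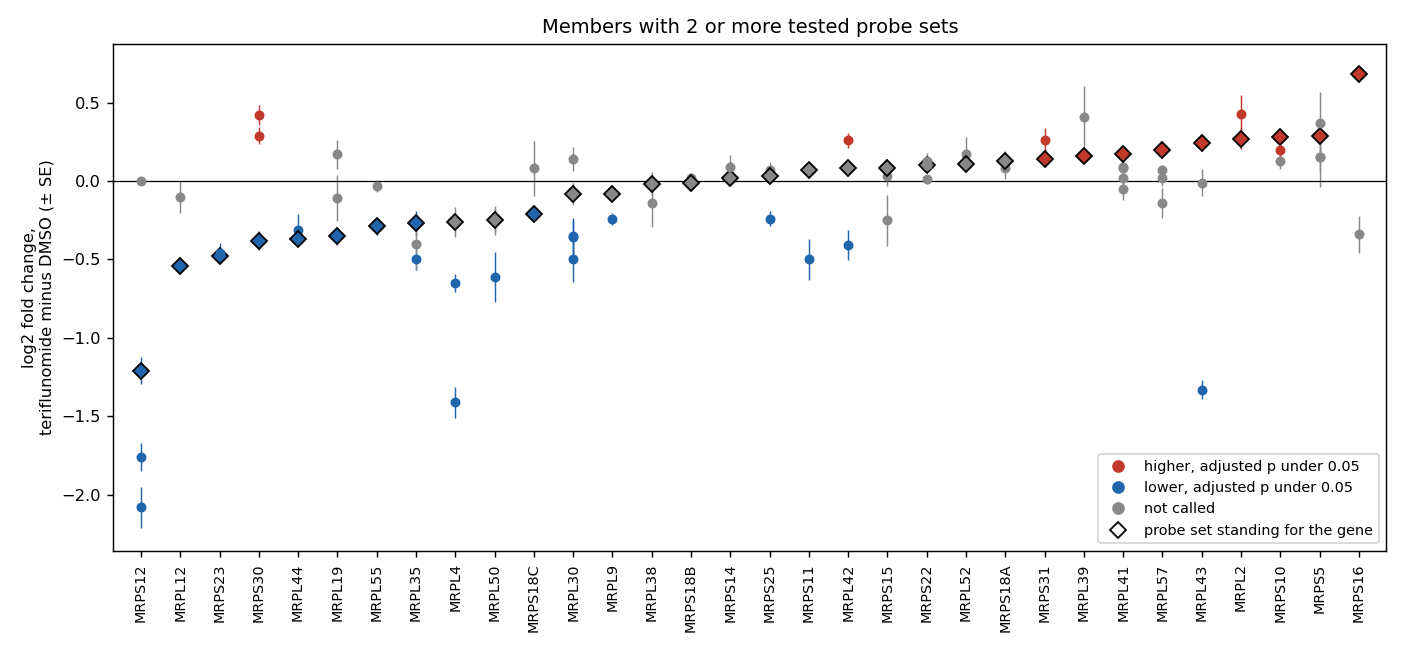
Log2 fold change, teriflunomide minus DMSO (vertical axis, bars are SE), of every tested probe set of the 32 members that have 2 or more. Diamonds mark the probe set that stands for the gene; colours give the call when probe sets were tested singly. Probe sets of MRPS30, MRPL42 and MRPL43 were called on both sides of 0, and MRPL4 and MRPS12 reached -1.41 and -2.08.

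The other genes of mitochondrial translation were counted in lists. Of 4 further ribosomal proteins with other symbols, PTCD3 (-0.33) and GADD45GIP1 (-0.27) fell. CHCHD1 passed narrowly at -0.11 (adjusted p = 0.0486, and 0.0236 to 0.2 under the alternatives tried). DAP3, a GTP-binding protein of the small subunit head, did not pass at -0.01. KGD4, once named MRPS36 and now placed in the 2-oxoglutarate dehydrogenase complex, stood at -0.21 (adjusted p = 0.018), a call lost without teriflunomide array 1 or 2.

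Of 26 assembly factors 15 fell (57.7%) and 5 rose, where all genes tested gave 28.9% lower and 29.7% higher. Their median log2 fold change was -0.249, which was -0.394 with probe sets averaged and -0.146 with the plain suffix preferred. DDX28, an RNA helicase of large subunit assembly, read log2 8.37, 8.34 and 8.39 with teriflunomide, against 9.36, 9.29 and 9.28 in DMSO, a change of -0.94 (SE 0.035). RPUSD3, a pseudouridine synthase, read log2 9.08, 9.02 and 9 with teriflunomide, against 7.90, 8.11 and 7.99 in DMSO, a change of 1.03 (SE 0.059) that turned to -0.60 when probe sets were averaged. Of 16 translation factors 7 fell (43.8%) and 3 rose (18.8%), with a median of -0.046. That median has no settled direction: it was 0.02 without teriflunomide array 1, -0.091 without teriflunomide array 2 and -0.259, with 9 lower, with probe sets averaged. TSFM, the exchange factor of the elongation factor TUFM, changed by -0.77 (SE 0.063) and MRRF, which recycles the ribosome, by -0.69 (SE 0.066). OXA1L, which inserts the new chains into the inner membrane, rose by 0.69 (SE 0.045).

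Of 18 mitochondrial aminoacyl-tRNA synthetases and related enzymes, which charge the tRNAs of the organelle, 12 fell (66.7%) and 2 rose. Their median log2 fold change was -0.296. For this list and the next, the shares of all genes tested were 28.9% lower and 29.7% higher. CARS2 changed by -1.45 (SE 0.065) and MARS2 by -1.18 (SE 0.096), while WARS2 rose by 0.52 (SE 0.086). Of 12 genes of mitochondrial transcription and the nucleoid 7 fell and 1 rose, with a median of -0.239, but 4 fell without teriflunomide array 1 or without DMSO array 3. TFB2M, which opens the promoters of mitochondrial DNA, read log2 10.85, 10.83 and 11.00 with teriflunomide, against 12.27, 12.27 and 12.24 in DMSO (-1.37, SE 0.054). TWNK, the helicase of mitochondrial DNA replication, changed by -1.15, and TEFM, a transcription elongation factor, rose by 0.24 (adjusted p = 0.192 with probe sets averaged).

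Of 12 tested regulators of mitochondrial biogenesis 4 rose and 4 fell (33.3% each way, against 29.7% higher and 28.9% lower of all genes), and 1 rose with probe sets averaged. PPARGC1A, the coactivator PGC-1α, read log2 8.23, 8.17 and 8.10 with teriflunomide, against 6.98, 7.40 and 7.44 in DMSO (0.89, SE 0.132). Its relative PPARGC1B read log2 6.80, 6.55 and 7.12 with teriflunomide, against 8.16, 8.57 and 8.27 in DMSO (-1.51, SE 0.179). MYCN fell by 0.43 log2 units (SE 0.047). DHODH, the target of the drug, was dim, at log2 2.57, 3.23 and 2.63 with teriflunomide and 4.09, 4.07 and 3.50 in DMSO. Its change was -1.08 (SE 0.248), and no difference was left with values under log2 5 raised to 5, so DHODH is too dim here for a firm value.

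The ribosomal proteins of the cytosol, which build the ribosomes that translate all nuclear transcripts, were counted in the same way. Of 32 in the large subunit 8 rose, with a median log2 fold change of 0.059, and of 20 in the small subunit 5 rose, with a median of 0.069. Both counts are 25.0% of the list, below the 29.7% higher among all genes. By limma 0 were lower in either subunit, and 0 at an unadjusted p under 0.05. Most of these genes read near the top of the arrays' range, above the mitochondrial members, though RPL27A, RPL36A and RPLP2 were dimmer. RPLP1 had a mean of log2 16.29 with teriflunomide, where the highest values on those arrays were 16.26 to 16.31. Whether changes so near the top were compressed was not tested, so few calls do not show stable transcripts. RPL12 read log2 15.50, 15.59 and 15.58 with teriflunomide, against 15.25, 15.35 and 15.30 in DMSO, a change of 0.26 (SE 0.042), and RPL3 also changed by 0.26 (SE 0.049). In the small subunit RPS9 (0.14, SE 0.030) and RPS29 (0.11, SE 0.030) led. These counts moved with the settings: 5 to 16 large subunit genes and 1 to 13 small subunit genes were higher over the alternatives, and 3 and 4 were lower with probe sets averaged, and 3 and 3 with the plain suffix preferred. Quantile normalization brought the medians to 0.024 and 0.015.

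**Figure D4:**
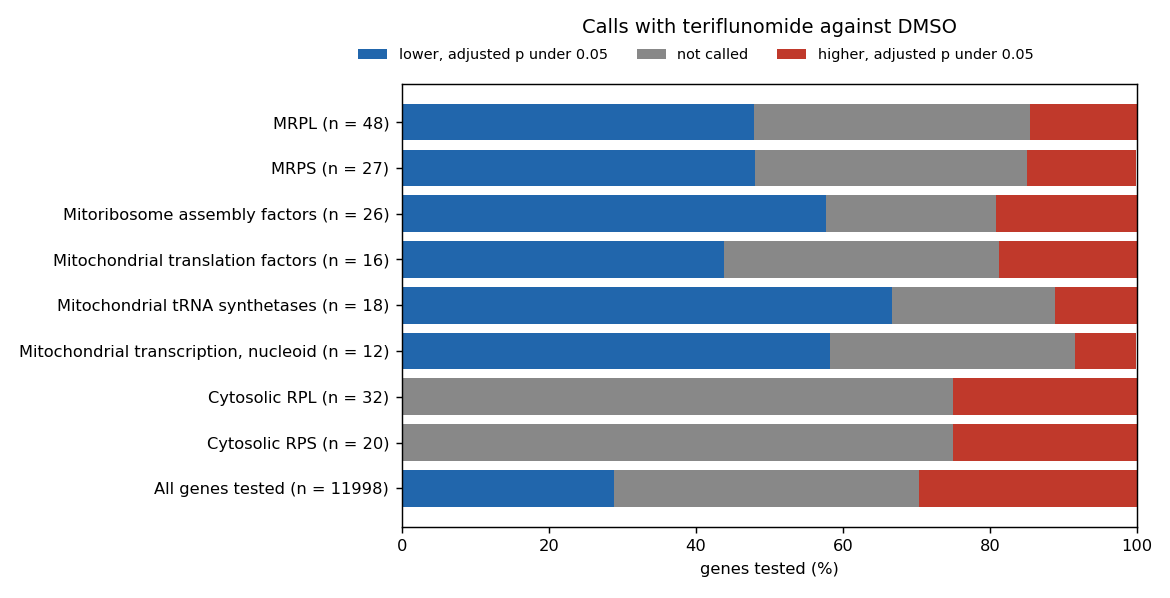
Share of tested genes called lower (blue), not called (grey) and higher (red) with teriflunomide against DMSO, for the members, 4 lists of related mitochondrial genes, cytosolic ribosomal proteins and all genes. Of MRPL genes 47.9% and of MRPS genes 48.1% were lower, where all genes gave 28.9%. Most cytosolic ribosomal protein genes read near the top of the arrays' range.

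Some members start head to head with a gene on the other strand. Within 1000 bases, by the same RefSeq build, 18 such pairs had both genes tested. In 4 pairs both fell, and in 3 they moved in opposite directions. In 4 the member fell and its neighbour did not pass, in 4 the neighbour alone passed, and in 3 neither did. Of the 18 neighbours 7 fell and 4 rose, where 28.9% of all genes tested were lower and 29.7% higher. How many pairs of each kind these shares alone would give was not tested. MRPS12 and SARS2, a mitochondrial seryl-tRNA synthetase whose start lies 181 bases away, were at -1.21 and -0.01 (SE 0.091 for SARS2). The MRPS12 promoter above therefore lies across the start of both genes.

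MRPL57 and SKA3, a gene of the kinetochore, start 106 bases apart and stood at 0.20 and -0.82. MRPS18C and HELQ, a DNA helicase, stood at -0.21 and 0.87, but HELQ averaged over probe sets turned to -0.25. MRPL14 and TMEM63B stood at -0.37 and 0.60. MRPS18B and PPP1R10, a nuclear subunit of protein phosphatase 1, start 597 bases apart. PPP1R10 changed by -5.17, while MRPS18B stood at -0.01. The pairs in which both fell were MRPL40 with HIRA, MRPS27 with PTCD2, MRPS2 with PIERCE1 and MRPL32 with PSMA2, where the neighbours stood at -0.84, -1.17, -0.81 and -0.28. MRPL49 fell by 0.43 beside FAU, a gene that encodes a cytosolic ribosomal protein, at 0.05 and not called.

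**Figure D5:**
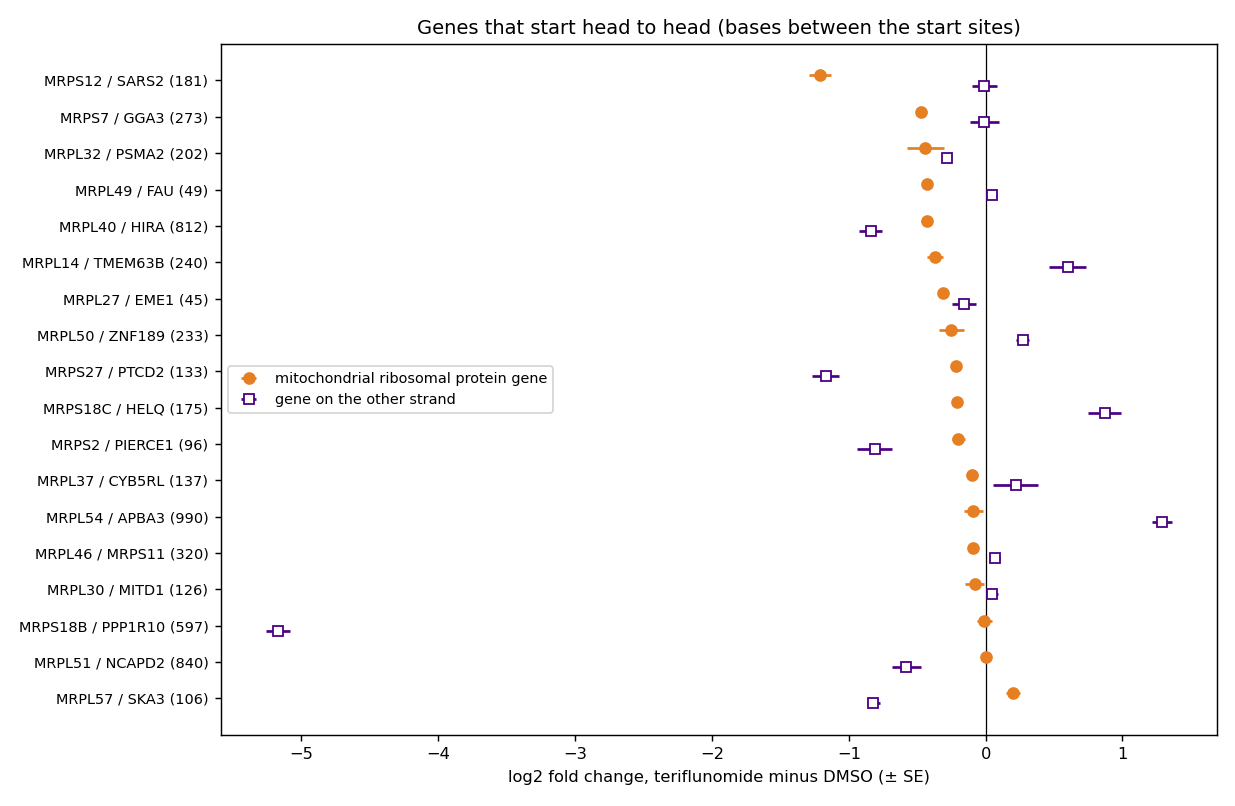
Log2 fold change, teriflunomide minus DMSO (horizontal axis, bars are SE), of 18 members (circles) and the gene that starts on the other strand (squares), with the bases between their starts in brackets. PPP1R10 at -5.17 stands far from MRPS18B at -0.01, and MRPS12 at -1.21 from SARS2 at -0.01.

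The letters of the promoters were counted as a description. The ETS motif CCGGAAG was in the window of 29 of 67 members (43.3%) and in 22.5% of 9815 tested genes with an entry. Among members that fell it was in 13 of 31, among those that rose in 5 of 9 and among those not called in 11 of 27. The YY1 motif AAGATGGC was in 20 of 67 members (29.9%) and in 6.6% of tested genes, with 9 of 31 that fell, 1 of 9 that rose and 10 of 27 not called. The NRF1 motif was in 9 members (13.4%, and 13.8% of tested genes), the E-box CACGTG in 9 (13.4%, and 13.1%) and TGATGNAA, part of an ATF4 response element, in 1 (1.49%, and 2.66%). Over promoters of all 27305 genes the 5 shares were 12.2%, 3.52%, 6.98%, 8.77% and 4.46%, in the same order. No 2 motifs overlapped in the 83 windows of members.

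A control for RNA or target length differed between the groups and so moved with every count above. The 3' minus 5' signal of ACTB was 1.55, 1.63 and 1.68 log2 units on the teriflunomide arrays, against 1.36, 1.39 and 1.32 on the DMSO arrays (exact permutation p = 0.1, two-sided, the smallest this design allows). For GAPDH it was 0.06, 0.05 and 0.09 with teriflunomide, against 0.05, 0.06 and 0.04 in DMSO (exact permutation p = 0.4). Its part in the changes of the members was not tested.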

How the data were processed

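The authors deposited log2 intensity values for all 54675 probe sets of 6 arrays, made with GCRMA per the submitters' processing notes, which corrects background by probe sequence, quantile normalizes and summarises probes. Its version is not given in the sources used here, and no depth applies: precision is limited by the 3 arrays per group. GCRMA sets dim probe sets to a common low value, so their differences are compressed. Probe sets were named from the platform annotation: 41097 have 1 symbol, 1801 several and 11777 none. Those at or above the array's median on at least 3 of 6 arrays were kept, and the one with the highest mean stood for its gene, which left 11998 genes. limma (3.58.1, R 4.3.3) lmFit and eBayes compared teriflunomide with DMSO, with Benjamini-Hochberg adjustment over all genes and a threshold of 0.05. Probe sets were also tested singly. The test was checked on simulated data. Full values were given for the 8 largest rises and 8 largest falls, genes with opposite probe set calls, a few genes by name, and the leading genes of 8 related lists. The members and lists were chosen with earlier results of these data known. Promoters are from RefSeq, build GRCh38.p14. Alternatives varied the filter, scaling, choice of probe set, variance model, array weights, low values, threshold, replicate block and the arrays left out.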

Additional observations from a re-analysis of the deposited data

Results flagged for a closer look

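Probe sets annotated to a member together with another gene were outside the comparisons, and 2 of them passed the limma test over probe sets. The probe set annotated to MRPL53 and CCDC142 read log2 11.92, 11.94 and 12.01 with teriflunomide, against 11.45, 11.44 and 11.54 in DMSO, a log2 fold change of 0.48 (limma adjusted p = 0.000689). The probe set annotated to MRPS24 and the read-through gene URGCP-MRPS24 read log2 13.46, 13.39 and 13.38 with teriflunomide, against 13.12, 13.15 and 13.25 in DMSO, a log2 fold change of 0.24 (limma adjusted p = 0.0102). In both the teriflunomide arrays lay above the DMSO arrays, and which of the 2 annotated genes gave the signal cannot be told apart.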

How the results depend on the processing

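The gene counts (36 lower, 11 higher) and the median of -0.167 kept their direction under all alternatives. Leaving out 1 array at a time gave 33 to 36 genes lower and 8 to 11 higher, a median of -0.175 to -0.141, 20 to 23 MRPL genes lower and 5 to 7 higher, 13 MRPS genes lower and 3 to 4 higher, and 44 to 49 probe sets lower and 12 to 15 higher. The mean of probe sets left 4 MRPL genes higher. Preferring probe sets with the plain suffix left 7 genes and 2 MRPS genes higher, with a median of -0.212. An adjusted p under 0.01 left 7 genes, 4 MRPL genes and 8 probe sets higher. As the mean of probe sets, HELQ (-0.25), MRPL43 (-0.37), MRPS11 (-0.22), MRPS30 (0.11) and RPUSD3 (-0.6) reversed. With the plain suffix HELQ (-2.68), MRPL42 (-0.41), MRPL43 (-1.33) and MRPS16 (-0.34) reversed, since another probe set then stood for the gene. Of 47 called members, 32 kept the call under the 16 alternatives that keep the 0.05 threshold, 29 lower and 3 higher, and 29 of these also at 0.01, 26 lower and 3 higher. MRPL12 lost its call with the plain suffix, which took its dim probe set. With the replicate number as a block, 36 genes were lower and 10 higher, with 48 probe sets lower and 13 higher, and MRPL32 and MRPS31 lost their calls. Arrays with the same number correlated at 0.044, 0.099 and -0.09 in their deviations, so the numbers were not taken as pairs. Dim probe sets limit what can be compared.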
